A study of Homo sapiens with 24 samples.

Results

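The genes described here are 8 named genes of hepatic type, namely CES1, A1CF, ITIH2, CPS1 and SERPINA1, which are typical products of hepatocytes, and HNF4A, HNF4G and FOXA2, transcription factors that act on such genes. They were chosen by their measured values, because CES1, A1CF and ITIH2 were much higher in A549 cells with PKCδ shRNA, so the A549 contrast is given for them as a description with no test. Of the 8 genes, 7 had a transcript cluster that carried their symbol alone, out of 18417 genes analysed. HNF4A had no such cluster and has no expression values here. RNA came from 4 non-small cell lung cancer (NSCLC) lines with mutant K-ras, on 24 human gene arrays. H2009 and H441 are dependent on K-ras for survival and A549 and H460 are not. Each line stably expressed either δ193, an shRNA against the coding region of PRKCD, the gene for the kinase PKCδ, or the non-targeting scrambled shRNA δscr, with 3 biological replicates per group. All groups therefore carry a mutant K-ras and a stably integrated shRNA, the knockdown rests on a single shRNA sequence, and all values are from cultured cells.

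Hepatocytes secrete most plasma proteins and hold the urea cycle, and the genes for these tasks are switched on together by a network of liver-enriched transcription factors. FOXA2 belongs to the forkhead factors that open endodermal chromatin in liver, gut and lung, and HNF4A and its paralog HNF4G are nuclear receptors of liver and intestine. CES1 is a carboxylesterase that hydrolyses esters, drugs and lipids. A1CF is the RNA-binding cofactor of the APOBEC1 deaminase, ITIH2 is a heavy chain of the inter-alpha-trypsin inhibitor that is transferred to hyaluronan, CPS1 catalyses the entry step of the urea cycle in mitochondria, and SERPINA1 encodes alpha-1 antitrypsin, the plasma inhibitor of neutrophil elastase.

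On GRCh38.p14 the protein-coding genes lie at chr16:55802851-55833096 (CES1), chr10:50799409-50885627 (A1CF), chr10:7703316-7749520 (ITIH2), chr2:210477685-210679107 (CPS1), chr14:94376747-94390635 (SERPINA1) and chr20:22580998-22585490 (FOXA2). The coordinates leave out HNF4A and HNF4G. RefSeq promoter windows run from 250 bases before a start site to 50 bases after it. They were taken for 4 of the 8 genes (A1CF, HNF4A, CPS1 and SERPINA1), 8 windows in all. No window of CES1, ITIH2, FOXA2 or HNF4G was part of the search. This does not show that RefSeq lists none for them, and motifs at these genes were not tested. For A1CF, CPS1 and SERPINA1, 1 window each is printed 5′ to 3′ on the gene's strand. CPS1 and SERPINA1 have further windows, which are not printed. The A1CF window is chr10:50885578-50885877 (minus strand), the printed CPS1 window chr2:210477435-210477734 (plus strand) and the printed SERPINA1 window chr14:94388553-94388852 (minus strand). Capitals mark the match to a FOXA motif.
A1CF: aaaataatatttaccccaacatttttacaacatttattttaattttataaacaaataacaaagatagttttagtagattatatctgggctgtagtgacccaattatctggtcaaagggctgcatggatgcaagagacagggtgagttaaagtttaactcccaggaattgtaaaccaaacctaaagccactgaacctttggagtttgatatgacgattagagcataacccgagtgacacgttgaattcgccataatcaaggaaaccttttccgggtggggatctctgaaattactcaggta
CPS1: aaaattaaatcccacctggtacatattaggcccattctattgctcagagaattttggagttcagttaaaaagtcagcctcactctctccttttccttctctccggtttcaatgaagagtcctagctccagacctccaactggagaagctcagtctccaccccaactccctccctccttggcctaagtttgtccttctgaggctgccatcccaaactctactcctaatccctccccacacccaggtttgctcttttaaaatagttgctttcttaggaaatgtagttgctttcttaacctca
SERPINA1: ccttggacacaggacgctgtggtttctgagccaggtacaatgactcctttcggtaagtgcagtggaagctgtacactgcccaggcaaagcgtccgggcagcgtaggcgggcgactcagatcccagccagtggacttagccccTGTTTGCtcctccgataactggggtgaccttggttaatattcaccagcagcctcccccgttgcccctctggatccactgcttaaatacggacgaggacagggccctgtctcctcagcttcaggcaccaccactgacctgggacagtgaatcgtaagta
All 8 windows were searched on both strands for CAAAGTCCA (HNF4), CAAAGGTCA (nuclear receptor repeat), TTAATNATT (HNF1), TGTTTAC and TGTTTGC (FOXA) and TTGCGCAA (CEBP). The single match was TGTTTGC in the printed SERPINA1 window, with its first base at position -108 from the start site. Among 35116 promoter windows of this length, 3.89% hold TGTTTGC, 3.42% TGTTTAC and 7.17% either of them, whereas 1.31% hold TTAATNATT, 0.407% CAAAGGTCA, 0.384% CAAAGTCCA and 0.151% TTGCGCAA. These matches are descriptions of letters in a window.

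PRKCD was lower with δ193 in each line, with log2 fold changes of -2.40 in H441, -2.25 in H2009, -2.03 in H460 and -1.26 in A549, and no δ193 array overlapped the δscr arrays of its line. Values are log2 RMA values throughout, so a difference of 1 is a doubling of signal. In such bulk RNA, fewer cells that express a gene and less RNA per cell cannot be told apart. Across the 24 arrays the medians lay between 4.79 and 4.91. Arrays of a group correlated at 0.9918 or above in 7 of the 8 groups and at 0.9819 to 0.9901 among the δ193 arrays of H441, and H441 had the largest median within-group variance (0.0340, against 0.00852 in H460). Of the 12 lung-type genes measured, 4 had group means that spanned at least 1. ABCA3 was highest in A549 (6.60 with δ193 and 6.27 with δscr). NAPSA (4.63 with δ193 and 5.09 with δscr) and LAMP3 (4.91 with δ193 and 4.57 with δscr) were highest in H441. SFTPD lay between 5.22 and 5.52 in all groups. SFTPB, a surfactant gene that H441 cells are known to express, averaged 3.96 in δ193 and 4.01 in δscr cells of H441, within the 3.80 to 4.22 of the other groups, and NKX2-1 was highest in H2009 (5.07 with δ193 and 5.55 with δscr). The δscr means of H441 correlated most with those of H460 (r = 0.966) and least with those of A549 (r = 0.9265). Whether the arrays labelled H441 hold that line was not tested, and every H441 value and the H441 side of each comparison rest on the label. In the fit without the H441 arrays the same members were called in H2009 and in H460. EPCAM averaged 10.9 with δ193 and 11.2 with δscr in H2009 and 4.71 to 5.89 in the other lines. Of the 4 leukocyte markers measured, PTPRC and CD3E did not exceed 2.80 and 3.86 in any group mean, while CD14 and LYZ reached 6.11 (δscr) and 4.97 (δ193) in A549.

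CES1 showed the widest range of all measured members. In A549 the δ193 arrays were at 10.36, 10.73 and 10.95, against 6.79, 6.35 and 6.28 in δscr cells. Every δ193 array lay far above every δscr array, and the mean was 4.21 higher on the log2 scale, or 18.4-fold. In H2009 the values were 11.07, 10.95 and 10.95 with δ193, against 9.97, 10.06 and 10.11 with δscr. The H2009 groups did not overlap either, and CES1 rose by 0.94 on the log2 scale (SE 0.12, 95% confidence interval 0.68 to 1.20, 1.92-fold, adjusted p = 3.84e-05, limma). H441 arrays read 12.40, 12.58 and 12.35 with δ193 and 12.65, 12.65 and 12.63 with δscr. This difference of -0.20 did not pass the test (interval -0.46 to 0.06, adjusted p = 0.312). H460 arrays read 11.95, 11.94 and 11.90 with δ193 and 11.98, 12.01 and 11.87 with δscr, a difference of -0.02 (interval -0.28 to 0.24, adjusted p = 0.971).

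The 4 lines lay closer together in CES1 with δ193 than with δscr, with the group means spanning 1.77 with δ193 and 6.17 with δscr. A549 was lowest with either shRNA, and CES1 was chosen for its rise there, so the choice itself contributes to this narrowing. The δ193 means were 12.44 in H441, 11.93 in H460, 10.99 in H2009 and 10.68 in A549, and the highest A549 array reached the value of the lowest H2009 arrays. The δscr means were 12.64 in H441, 11.95 in H460, 10.05 in H2009 and 6.47 in A549, and no 2 neighbours in that order overlapped. Among the lines outside the choice of genes, all 3 pairwise differences in δscr level passed the test: -0.69 for H460 minus H441, 1.90 for H460 minus H2009 and -2.59 for H2009 minus H441. The change with δ193 in H2009 was itself larger than that in H441 by 1.14 (SE 0.18, adjusted p = 2.30e-04), and the change in H460 was smaller than that in H2009 by 0.96 (H460 minus H2009 -0.96, adjusted p = 0.00156). These changes and the δscr levels share the δscr arrays.

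**Figure D1:**
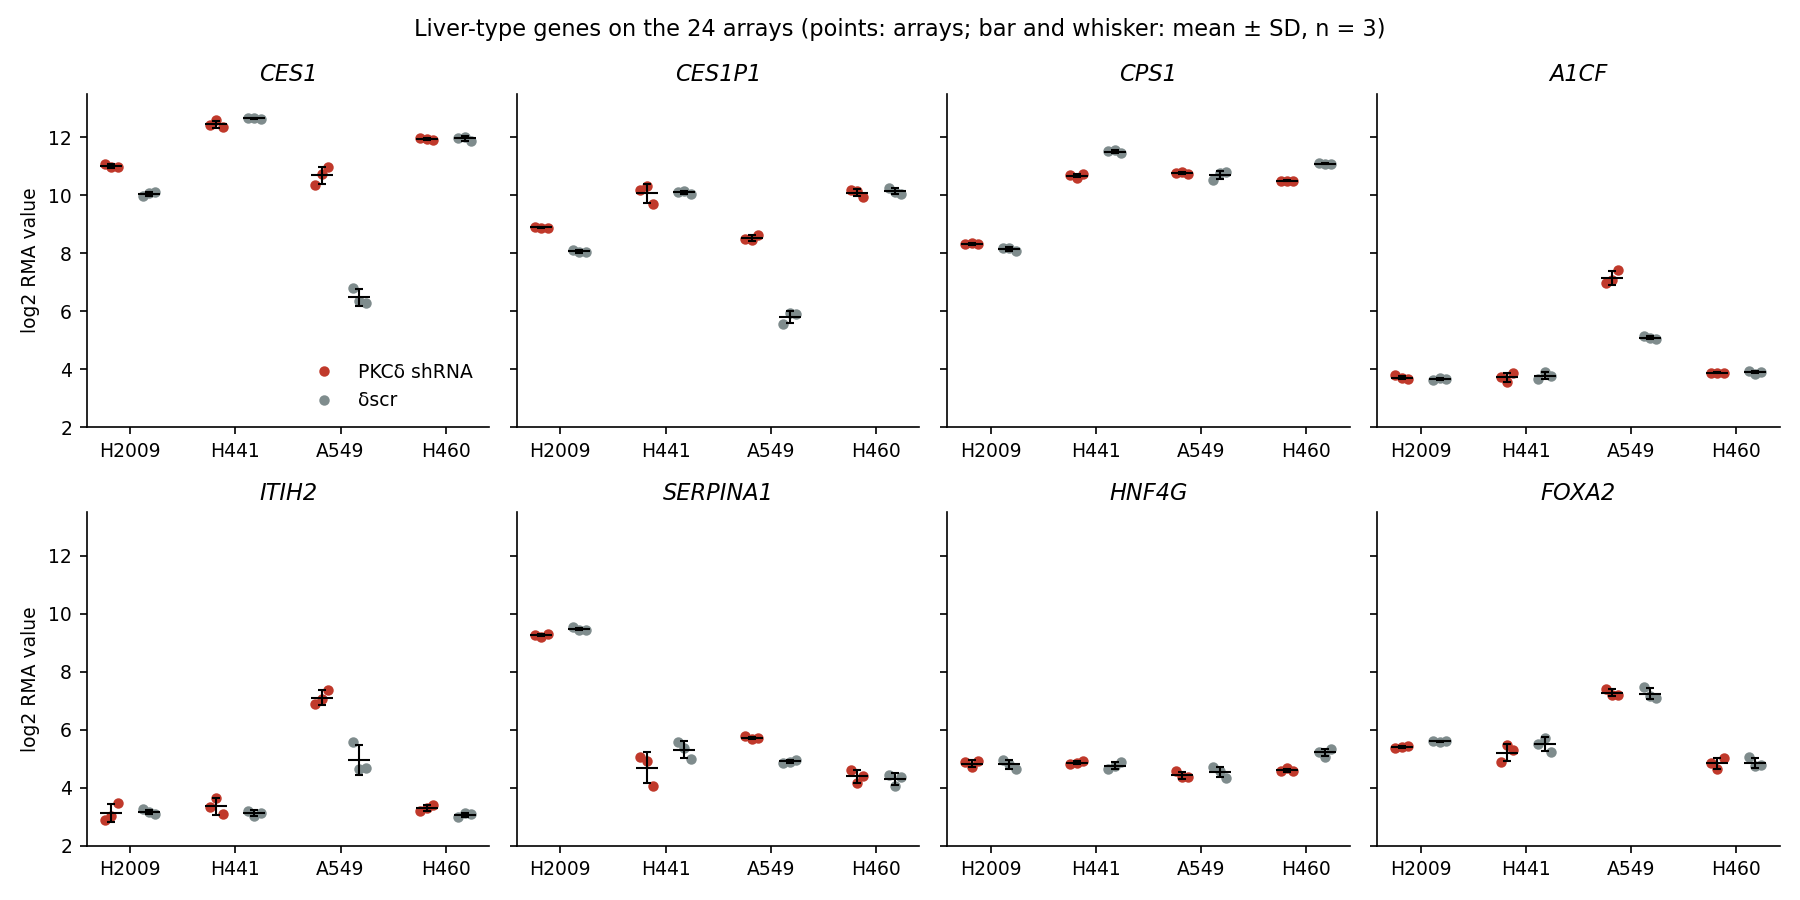
Log2 RMA values (vertical axis) of 7 members and the pseudogene CES1P1 on each array, by cell line (horizontal axis), δ193 (PKCδ shRNA) in red to the left of δscr in grey. Points are arrays, and bars and whiskers are the mean and SD of 3. In A549, CES1, A1CF, ITIH2 and SERPINA1 have every δ193 point above the δscr points, while CPS1 lies below δscr in H441 and H460. CES1, A1CF and ITIH2 were chosen for that rise in A549, and the share of all genes with such a separation was not counted.

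CES1P1, a pseudogene beside CES1 and nearly identical to it, has its own transcript cluster and moved with it. Its arrays in A549 were at 8.47, 8.43 and 8.63 with δ193, against 5.55, 5.95 and 5.89 with δscr. In H2009 they were at 8.91, 8.86 and 8.88 with δ193, against 8.10, 8.02 and 8.04 with δscr. Both lines were thus higher with δ193 at this cluster too, by 2.71 in A549, given with no test, and by 0.83 in H2009 (adjusted p = 1.17e-04, limma), while the differences were -0.04 in H441 and -0.06 in H460. Over the 24 arrays CES1 and CES1P1 correlated at r = 0.979, a description over arrays that share cell lines. The 2 clusters differed in the δscr level of H460 minus H441, which was called for CES1 (-0.69) but not for CES1P1 (0.04, adjusted p = 0.798, limma). Probe sequences were not examined, so how far each cluster also reads RNA of the other copy was not tested. CES2, another carboxylesterase of liver and intestine, had no call in any line, with differences between -0.19 and 0.22.

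**Figure D2:**
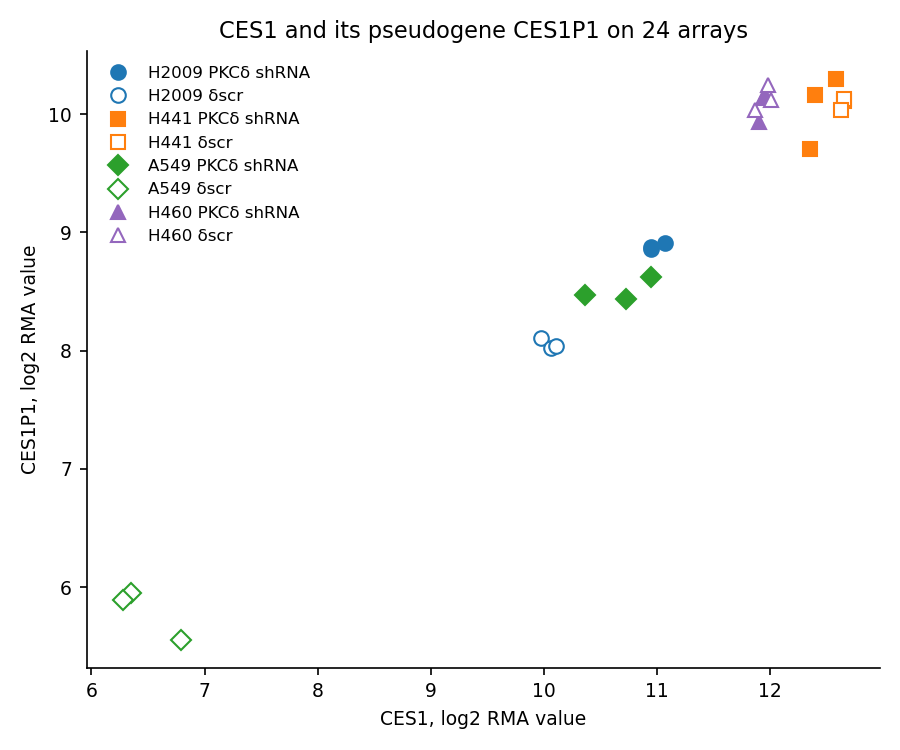
CES1 (horizontal axis) against CES1P1 (vertical axis), log2 RMA values of the 24 arrays, filled symbols for δ193 (PKCδ shRNA) and open symbols for δscr, with a colour and shape per line. The arrays fall along 1 line (r = 0.979), with the 3 δscr arrays of A549 alone at the low end and those of H441 and H460 together at the high end.

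A1CF was raised in A549 alone, with either shRNA. A549 arrays read 6.97, 7.06 and 7.42 with δ193, against 5.15, 5.07 and 5.04 with δscr, a difference of 2.06 or 4.18-fold. In H2009 they read 3.78, 3.69 and 3.66 with δ193, against 3.62, 3.68 and 3.65 with δscr. H441 arrays lay between 3.56 and 3.86 with δ193 and between 3.67 and 3.90 with δscr, and H460 arrays between 3.85 and 3.88 with δ193 and between 3.85 and 3.93 with δscr. In these 3 lines the groups overlapped and A1CF had no call, with differences of 0.06, -0.06 and -0.03 (adjusted p = 0.844, 0.746 and 0.937) and an SE of 0.10. Of its partners, APOBEC1, the deaminase that edits APOB mRNA, stayed between 3.33 and 3.88 in all group means, and APOB itself between 3.46 and 3.69. APOBEC1 was called lower in H441 (log2 difference -0.35, adjusted p = 0.0378), but not without δscr replicate 2 (-0.26, adjusted p = 0.175), δscr replicate 3 (-0.35, adjusted p = 0.0722) or δ193 replicate 3 (-0.27, adjusted p = 0.128). RBM47, another cofactor of that deaminase, fell in H460 by 0.33 on the log2 scale (adjusted p = 0.00746), a change at the edge of the fold threshold that was not called without δscr replicate 3 (-0.29, adjusted p = 0.0567) or without δ193 replicate 3 (-0.31, adjusted p = 0.0446).

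ITIH2 resembled A1CF. Its arrays in A549 were at 6.87, 7.04 and 7.37 with δ193, against 5.57, 4.65 and 4.69 with δscr, and the mean was higher by 2.13, or 4.36-fold. The δscr groups of the other lines averaged 3.06 to 3.16 and the δ193 groups 3.12 to 3.35. The test called ITIH2 in none of these, with differences of -0.04 in H2009, 0.23 in H441 and 0.24 in H460 (adjusted p = 0.967, 0.45 and 0.609), although all H460 arrays with δ193 lay above those with δscr. ITIH2 and A1CF correlated at r = 0.978 over the 24 arrays. This is a description that rests on A549, the line whose values chose both genes. AMBP, which encodes the bikunin chain to which the ITIH heavy chains are joined, rose in H2009 by 0.66 (adjusted p = 0.0211) and in H441 by 0.55 (adjusted p = 0.0257), and was 0.21 in A549 (adjusted p = 0.686). The AMBP call in H2009 was lost without δscr replicate 1 (0.46, adjusted p = 0.169), without δscr replicate 2 (0.60, adjusted p = 0.0917) and without δ193 replicate 2 (0.60, adjusted p = 0.1). That in H441 was lost without δscr replicate 1 (0.43, adjusted p = 0.128), without δ193 replicate 1 (0.55, adjusted p = 0.0551) and without δ193 replicate 3 (0.47, adjusted p = 0.0868). The other heavy chains ITIH1, ITIH3, ITIH4 and ITIH5 spanned 0.35, 0.26, 0.68 and 0.61 over the 8 group means. Of these only ITIH4 in H460 was called (0.56, adjusted p = 0.0391), and its call was lost in 5 of the 6 fits that left out 1 array of that line (adjusted p = 0.0587 to 0.2). HAS2, a hyaluronan synthase, was high in A549 alone, at 8.25 with δ193 and 7.70 with δscr and at 3.26 to 3.55 in the other groups. HAS3, a related synthase, fell in A549 by 0.63 on the log2 scale (adjusted p = 0.00227).

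CPS1 was called lower in H441 and H460, where CES1 had no call. In H441 its arrays read 10.70, 10.60 and 10.71 with δ193, against 11.51, 11.54 and 11.45 with δscr, and it fell by 0.83 on the log2 scale (SE 0.07, interval -0.98 to -0.68, 1.78-fold, adjusted p = 5.33e-08). In H460 the arrays read 10.49, 10.50 and 10.47 with δ193, against 11.09, 11.08 and 11.07 with δscr. Again no arrays overlapped, and CPS1 fell by 0.59 on the log2 scale (interval -0.75 to -0.44, adjusted p = 1.02e-05). H2009 arrays were at 8.31, 8.34 and 8.30 with δ193 and at 8.17, 8.17 and 8.07 with δscr, a difference of 0.18 that did not pass (adjusted p = 0.216). A549 arrays were at 10.77, 10.81 and 10.74 with δ193 and overlapped those with δscr, at 10.53, 10.76 and 10.80. The change in H2009 exceeded that in H441 by 1.01 (adjusted p = 2.16e-06), and the change in H460 was below that in H2009 (H460 minus H2009 -0.77, adjusted p = 5.53e-05). The changes in H441 and H460 differed by 0.24 (interval 0.02 to 0.45, adjusted p = 0.213), which was not called.

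The δscr level of CPS1 was lowest in H2009, below H441 by 3.37 and below H460 by 2.94, and both differences passed the test. No other listed enzyme of the urea cycle was called in any line. OTC and ARG1 group means stayed between 2.61 and 3.04, NAGS, which makes the activator of CPS1, between 6.12 and 6.80. ASS1 ran at 10.8 with δ193 and 10.9 with δscr in H460 and at 8.74 with δ193 and 8.71 with δscr in A549. SLC25A15, the mitochondrial ornithine carrier, rose in H441 by 0.52 (adjusted p = 0.00522), with arrays of 7.83, 8.02 and 8.35 with δ193 against 7.54, 7.54 and 7.58 with δscr. With array weights that difference was 0.33 (adjusted p = 0.0868).

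SERPINA1 was highest in H2009. Its arrays there were at 9.26, 9.20 and 9.29 with δ193 and 9.52, 9.45 and 9.45 with δscr, a difference of -0.22 that did not pass (adjusted p = 0.628). In A549 the arrays read 5.77, 5.68 and 5.71 with δ193, against 4.85, 4.90 and 4.96 with δscr, so that every δ193 array was higher, by 0.82 on average. H460 arrays read 4.60, 4.17 and 4.42 with δ193 and 4.45, 4.05 and 4.37 with δscr (difference 0.10, adjusted p = 0.848). In H441 they read 5.07, 4.92 and 4.07 with δ193, against 5.56, 5.38 and 4.99 with δscr. SERPINA1 passed the test there, lower by 0.62 (log2 difference -0.62, interval -0.99 to -0.25, adjusted p = 0.0176), but the groups overlapped, and the call was lost without δ193 replicate 3 (-0.32, adjusted p = 0.12), without δscr replicate 1 (-0.50, adjusted p = 0.097), without δscr replicate 2 (-0.59, adjusted p = 0.056) and with the H441 arrays fitted alone (adjusted p = 0.25). The δscr level in H2009 exceeded that in H441 by 4.16 and that in H460 by 5.18 (H460 minus H2009 -5.18). SERPINA2, its neighbour and near copy, read 2.92 to 3.57 on all arrays. It had no call for the change with δ193 in any line, and its δscr level was lower in H2009 and in H460 than in H441 (log2 differences -0.40 and -0.46, adjusted p = 0.00783 and 0.00269).

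Among the transcription factors, HNF4G fell in H460 alone of the 3 lines tested. Its arrays there were at 4.56, 4.67 and 4.57 with δ193, against 5.24, 5.07 and 5.33 with δscr. The groups did not overlap, and HNF4G fell by 0.61 on the log2 scale (SE 0.10, interval -0.83 to -0.40, 1.53-fold, adjusted p = 4.53e-04). The change was below that in H441 (H460 minus H441 -0.72, adjusted p = 0.00531) and below that in H2009 (H460 minus H2009 -0.64, adjusted p = 0.0104). In H2009 the arrays read 4.89, 4.70 and 4.91 with δ193 and 4.94, 4.80 and 4.66 with δscr. In H441 they read 4.82, 4.86 and 4.92 with δ193 and 4.64, 4.75 and 4.88 with δscr, and in A549 4.57, 4.36 and 4.37 with δ193 and 4.70, 4.58 and 4.34 with δscr. The 8 group means spanned 0.78, the narrowest range of any member.

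FOXA2 marked A549, with arrays of 7.40, 7.21 and 7.20 with δ193 and 7.45, 7.17 and 7.10 with δscr, which overlapped. In H2009 it read 5.35, 5.40 and 5.42 with δ193, against 5.59, 5.56 and 5.62 with δscr, a difference of -0.20 with no overlap that did not pass the test (adjusted p = 0.538). H441 arrays read 4.87, 5.46 and 5.31 with δ193 and 5.50, 5.73 and 5.24 with δscr (difference -0.28, adjusted p = 0.189), and H460 arrays 4.84, 4.66 and 5.04 with δ193 and 5.04, 4.73 and 4.77 with δscr (difference 0.00, adjusted p = 0.996). In δscr cells FOXA2 was lower in H460 than in H441 by 0.64 and than in H2009 by 0.74. FOXA1, a related forkhead factor, fell in A549 by 0.61 on the log2 scale (adjusted p = 0.00103), with arrays of 8.30, 8.28 and 8.32 with δ193 against 8.78, 8.97 and 8.98 with δscr. FOXA3 had no call in any line.

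**Figure D3:**
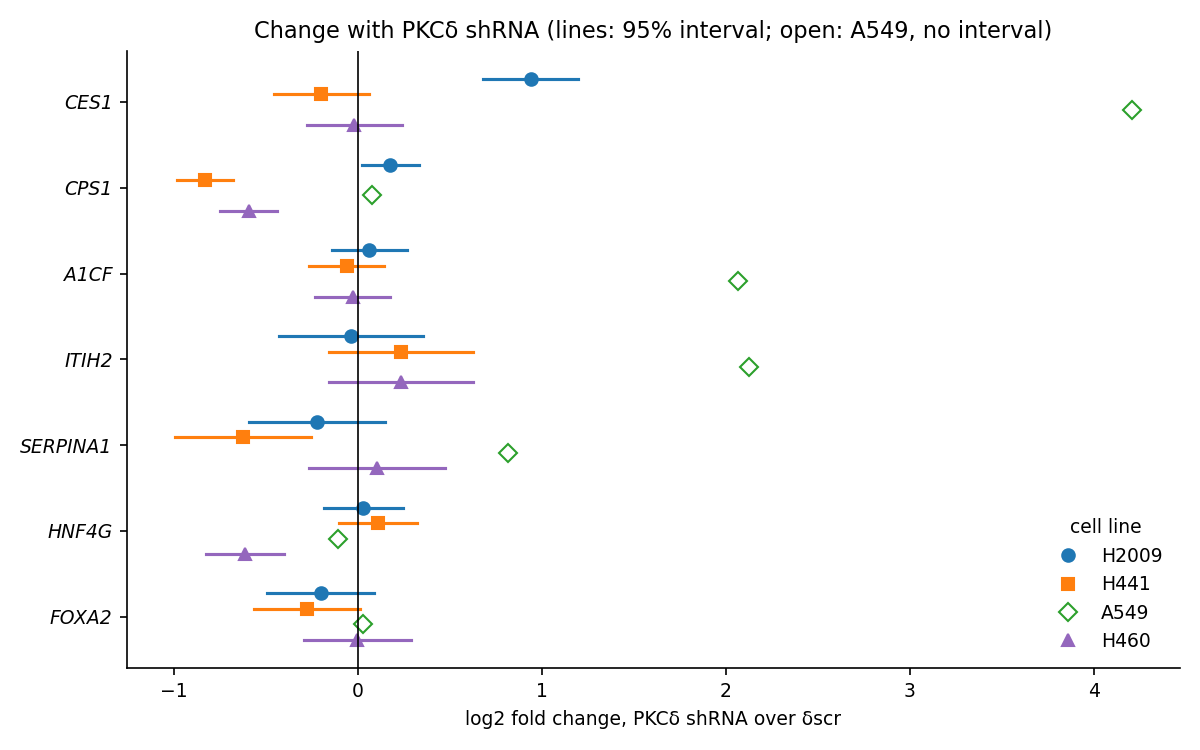
Log2 fold change, δ193 (PKCδ shRNA) over δscr (horizontal axis), of the 7 measured members (rows) in each cell line (colour and shape). Horizontal lines are 95% confidence intervals from limma for H2009, H441 and H460, and open diamonds are A549, given with no interval because the genes were chosen there. CES1 in H2009 lies at 0.94 and CPS1 in H441 and H460 at -0.83 and -0.59.

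Calls needed a 1.25-fold change or more together with an adjusted p below 0.05. By that rule 1 of 7 members was called in H2009 (CES1, higher), 2 of 7 in H441 (CPS1 and SERPINA1, lower) and 2 of 7 in H460 (HNF4G and CPS1, lower). Among all genes 4.91% were called in H2009, 14.3% in H441 and 5.45% in H460, so that in H441 the background share alone comes to 1 of 7. The median log2 fold change of the 7 was 0.03 in H2009, -0.20 in H441 and -0.02 in H460, against 0.01, 0.00 and 0.01 over all genes. For δscr levels, 3 of 7 members differed between H2009 and H441, 5 of 7 between H460 and H441 and 5 of 7 between H460 and H2009, against 49.3%, 45.4% and 35.5% of all genes. For differences between the changes, the counts were 2 of 7 for H2009 minus H441, 1 of 7 for H460 minus H441 and 3 of 7 for H460 minus H2009, against 7.12%, 4.83% and 4.21% of all genes.

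The members did not share 1 pattern. Over the 24 arrays A1CF and ITIH2 ran together with FOXA2 (r = 0.828 and 0.864), CES1 ran opposite to FOXA2 (r = -0.719), and CPS1 ran opposite to SERPINA1 (r = -0.925). These are descriptions, since the arrays fall into 4 lines and CES1, A1CF and ITIH2 were chosen by their values in A549. Of 6588 genes whose group means span at least 1, those most like CES1 apart from CES1P1 were NAMPT (r = 0.955), which makes the NAD precursor nicotinamide mononucleotide, and the tetraspanin TSPAN7 (r = 0.944). MUC5B, an airway gel-forming mucin, and the glucose transporter SLC2A12 were closest to both A1CF (r = 0.976 and 0.964) and ITIH2 (r = 0.964 each). MUC5B arrays in A549 were at 7.85, 8.13 and 7.89 with δ193, against 5.73, 6.29 and 6.64 with δscr. For FOXA2 the closest were ANXA4 (r = 0.982) and SEMA3C (r = 0.977), for CPS1 VPS35L (r = 0.985) and MBOAT7 (r = 0.969), and for SERPINA1 MAL2 (r = 0.983) and PLS1 (r = 0.981). HNF4G had no neighbour above r = 0.831, which was the serotonin receptor gene HTR2B. HTR2B in H460 read 3.53, 4.06 and 3.59 with δ193, against 6.05, 6.19 and 6.09 with δscr.

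A further 119 liver-type genes (regulators, secreted proteins and enzymes) were listed, of which 105 were measured. The marker genes listed for liver were split. Over the 8 group means ALB stayed between 2.83 and 3.02, AFP between 2.87 and 3.08 and TTR between 3.68 and 4.09. APOA1 stayed between 5.135 and 5.395, APOB between 3.46 and 3.69 and AHSG between 3.05 and 3.34. The remaining markers APOH, FGA, FGB and FGG were not flat, with spans of 4.29, 4.25, 5.96 and 3.14. A span of at least 1 was found for 30 of the 105 (28.6%), against 35.8% of all genes, and 17 of these 30 were highest in A549, against 25.8% of all genes with such a span. The fibrinogen chains were the clearest case. FGB averaged 8.34 with δ193 and 8.97 with δscr in A549, FGA 7.07 with δ193 and 7.31 with δscr, and FGG 5.92 with δ193 and 5.17 with δscr, while no other group mean exceeded 3.45 for any of the 3.

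**Figure D4:**
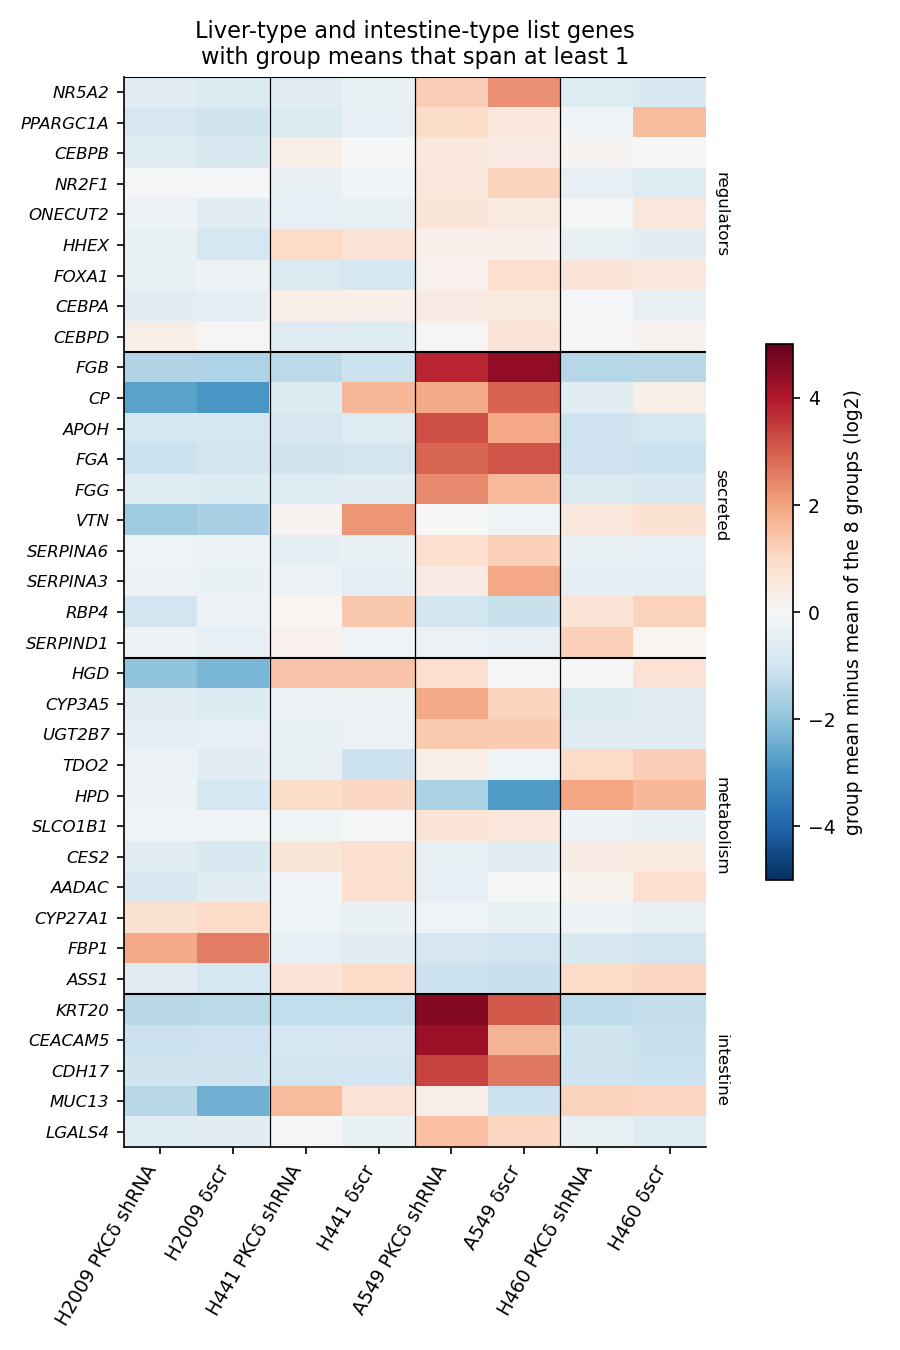
Group means of the 30 liver-type and 5 intestine-type list genes whose means span at least 1, as the difference from the mean of the 8 groups (colour, log2 units), with lines and shRNAs in columns, δ193 (PKCδ shRNA) left of δscr. FGB, FGA, APOH, KRT20, CEACAM5 and CDH17 are high in both A549 columns, and CP and VTN lie lower with δ193 than with δscr in H441.

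In A549, 4 of the 105 genes rose (2.05% of all genes rose there) and 7 fell (2.58% of all genes), of 4.63% called in all, in the contrast that also chose the members. APOH, a phospholipid-binding plasma protein, read 6.86, 7.16 and 7.15 with δ193, against 5.76, 5.53 and 5.97 with δscr, and rose by 1.31 (adjusted p = 2.07e-08, limma). HPD and HGD, enzymes of tyrosine breakdown, rose by 1.23 (adjusted p = 2.86e-06) and 0.87 (adjusted p = 9.25e-06), and CYP3A5, a drug-metabolizing cytochrome, by 0.79 (adjusted p = 2.43e-04). The genes that fell included 4 regulators. The nuclear receptor NR5A2 read 5.01, 5.15 and 4.88 with δ193, against 5.84, 6.24 and 6.11 with δscr, and fell by 1.05 on the log2 scale (adjusted p = 5.17e-05). Besides FOXA1, CEBPD fell by 0.56 on the log2 scale (adjusted p = 4.62e-04) and NR2F1 by 0.53 (adjusted p = 0.0167). Of the acute-phase genes, SERPINA3 fell by 1.51 on the log2 scale (adjusted p = 2.95e-06), CP, which encodes ceruloplasmin, by 1.08 (adjusted p = 0.00171) and FGB by 0.64 (adjusted p = 0.015). The NR2F1 call was lost without δscr replicate 1 (-0.49, adjusted p = 0.079), without δ193 replicate 2 (-0.51, adjusted p = 0.0748) and without δ193 replicate 3 (-0.46, adjusted p = 0.105), and the FGB call without δscr replicate 3 (-0.49, adjusted p = 0.109), without δ193 replicate 1 (-0.53, adjusted p = 0.093) and without δ193 replicate 2 (-0.63, adjusted p = 0.0564). Hence the liver-type genes of A549 moved in both directions, with a median change of 0.04 against 0.01 over all genes. LYZ and CD14, which are leukocyte markers, moved in A549 too. LYZ rose by 1.09 (adjusted p = 1.96e-04), and CD14 was called lower (-0.75, adjusted p = 0.00784), but not without δscr replicate 1 (adjusted p = 0.0756) or δ193 replicate 1 (adjusted p = 0.0642). The epithelial gene CLDN4 rose by 0.58 (adjusted p = 1.67e-04). Their part in these values was not tested.

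In H441, where CPS1 and SERPINA1 were lower, 5 of the 105 list genes rose (7.09% of all genes) and 6 fell (7.22% of all genes). CP fell by 2.31 on the log2 scale (adjusted p = 4.75e-08), with arrays of 6.31, 6.45 and 5.70 with δ193 against 8.54, 8.59 and 8.24 with δscr. VTN, the adhesive plasma protein vitronectin, read 6.67, 6.62 and 6.58 with δ193, against 8.84, 8.72 and 8.60 with δscr, and fell by 2.09 on the log2 scale (adjusted p = 1.87e-10). RBP4, the plasma carrier of retinol, fell by 1.23 on the log2 scale (adjusted p = 1.83e-07), and the esterase AADAC by 0.96 (adjusted p = 4.31e-05). In each of these genes the 3 δ193 arrays lay below the 3 δscr arrays. The 5 that rose (AMBP, SLC25A15, TDO2, ACOX2 and SLC10A1) were not called with the H441 arrays fitted alone. Of the 6 that fell, SERPINA5 (-0.35, adjusted p = 0.0274) was not called with those arrays alone either (adjusted p = 0.317). Its call was also lost without δscr replicate 2 (adjusted p = 0.158) and without δ193 replicate 1 (adjusted p = 0.163). Markers of other kinds moved in H441 too. Of 6 epithelial genes measured 2 were called lower (33.3%, list median -0.33). CDH1 was at 5.20 with δ193 and 6.41 with δscr (log2 difference -1.20, adjusted p = 0.0012, and 0.0676 with the H441 arrays fitted alone), and KRT19 at 8.32 with δ193 and 8.86 with δscr (-0.55, adjusted p = 0.00182, and 0.0532 with those arrays alone). The lung-type gene NAPSA (-0.46, adjusted p = 0.0173, lost without δscr replicate 2, δ193 replicate 1 or δ193 replicate 3 at 0.0613 to 0.0842) and the endothelial gene PECAM1 (-0.51, adjusted p = 7.21e-04, and 0.113 with those arrays alone) were called lower as well. The part of these markers in the values was not tested.

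In H460, where HNF4G and CPS1 were lower, 3 list genes rose (2.01% of all genes) and 7 fell (3.44% of all genes). PPARGC1A, a coactivator of HNF4A in the fasting liver, read 4.91, 4.69 and 4.76 with δ193, against 6.55, 6.37 and 6.60 with δscr, and fell by 1.72 on the log2 scale (adjusted p = 1.69e-07). ONECUT2, a liver and gut homeobox factor, fell by 0.67 on the log2 scale (adjusted p = 0.00299), HGD by 0.69 (adjusted p = 1.14e-04) and AADAC by 0.66 (adjusted p = 0.0047). SERPIND1, which encodes heparin cofactor II, rose by 1.10 (adjusted p = 1.92e-04), with arrays of 5.21, 5.75 and 5.03 with δ193 against 4.22, 4.30 and 4.16 with δscr. CP and RBP4 were also called lower, by 0.83 and 0.48 (log2 differences -0.83 and -0.48, adjusted p = 0.0135 and 0.0168), but each lost its call in 4 of the 6 fits that left out 1 array of H460, CP at an adjusted p of 0.0508 to 0.0603 and RBP4 at 0.0543 to 0.137. Of the other markers, KRT19 rose in H460 by 1.20 (adjusted p = 2.15e-07), CDH1 was at 4.90 with δ193 and 5.60 with δscr (-0.70, adjusted p = 0.104), and CD14 was called higher (0.57, adjusted p = 0.0446, lost in each of the 6 fits that left out 1 array of H460). Their part in these values was not tested.

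In H2009, where CES1 was higher, 4 list genes rose (2.66% of all genes) and 2 fell (2.25% of all genes). HPD rose by 0.65 (adjusted p = 0.00446), with arrays of 7.76, 7.66 and 7.42 with δ193 against 7.02, 6.98 and 6.89 with δscr. RBP4 fell by 0.65 on the log2 scale (adjusted p = 0.00173), with arrays of 4.60, 4.75 and 4.70 with δ193 against 5.45, 5.18 and 5.36 with δscr. The gluconeogenic enzyme FBP1, which was highest in this line, read 6.51, 5.70 and 6.38 with δ193 and 7.02, 6.48 and 7.11 with δscr and was called lower (log2 difference -0.67, adjusted p = 0.0121), a call that was lost without δ193 replicate 2 (-0.42, adjusted p = 0.109) and without δscr replicate 1 (-0.60, adjusted p = 0.0746) or 3 (-0.55, adjusted p = 0.0849). HHEX, an early liver homeobox gene, was called higher (0.51, adjusted p = 0.0086) but not without δ193 replicate 1 (0.39, adjusted p = 0.0736) or δscr replicate 1 (0.46, adjusted p = 0.0558). ACOX2 was called higher too (0.39, adjusted p = 0.0394), but lost its call in every fit that left out 1 array of H2009 (adjusted p = 0.0509 to 0.145).

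Intestine-type genes were examined because HNF4G and A1CF are also expressed in intestinal epithelium. In A549, 5 of 14 rose (35.7%, against 2.05% of all genes), in the contrast that also chose the members. The list was written with earlier results of these data known. CEACAM5, a glycoprotein of colonic epithelium, read 8.44, 8.48 and 8.47 with δ193, against 4.08, 6.46 and 7.08 with δscr (difference 2.59, adjusted p = 2.13e-04). KRT20, an intestinal keratin, read 9.93, 9.66 and 9.85 with δ193, against 7.01, 8.63 and 9.19 with δscr (difference 1.53, adjusted p = 0.00168, and 0.0888 with the A549 arrays fitted alone). In both genes δscr replicate 1 stood below the other δscr arrays, and without it the differences were 1.69 (adjusted p = 1.27e-07) and 0.90 (adjusted p = 1.48e-04). The same array was the highest δscr array of A549 in CES1 and ITIH2, whose differences with δ193 were 4.21 and 2.13 with it and 4.37 and 2.42 without it. CDH17, an intestinal cadherin, rose by 0.75 (adjusted p = 1.32e-04), and VIL1, the brush border protein villin, by 0.51 (adjusted p = 9.40e-04). MUC13, a membrane mucin, rose in A549 by 1.38 (adjusted p = 1.04e-07), in H2009 by 1.03 (adjusted p = 1.04e-05) and in H441 by 0.85 (adjusted p = 3.79e-05), and was 0.08 in H460 (adjusted p = 0.837). It was the single intestine-type gene called in H2009 and in H441, 1 of 14 (7.14%) in each, against 4.91% and 14.3% of all genes.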

How the data were processed

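Total RNA was profiled on Affymetrix Human Gene arrays. The values the authors deposited are log2 signals from RMA in Affymetrix Power Tools (background correction, quantile normalization and 1 summary per transcript cluster). Their versions are not given in the sources read. RMA pulls low signals together, so changes of low genes can be understated. Clusters with a single symbol in the platform annotation were kept, updated through Entrez IDs, with the cluster of highest mean for each gene. limma 3.58.1 in R 4.3.3 fitted 8 group means to 24 arrays, with Benjamini-Hochberg adjustment over 18417 genes. Call rules, named genes (members, near copies, partners, up to 4 called genes per list and line, and the 3 genes most correlated with each member) and lists written from memory were chosen with earlier results of these data known. Scripts were tested on simulated data. The methods' t-test, other fits and normalizations, and each array left out were alternatives. The methods call the replicates biological. In the main fit each gene has 1 spread shared by all 24 arrays, and p-values and intervals measure that spread. In H441, the line with the most scatter, they can therefore be too favourable, and so can its share of called genes. With only a line's own arrays, 401 genes were called in H441, against 2636 in the main fit. These counts were 1583 against 1003 in H460, 896 against 904 in H2009 and 761 against 852 in A549. Array number limits the precision. Same-numbered arrays correlated at -0.0854 to 0.284, above 0.1 in 2 of 12 pairs, which were of H2009. Whether the numbers pair the samples is not known, and the main fit left them out.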

Additional observations from a re-analysis of the deposited data

Results flagged for a closer look

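The change with δ193 differed between lines, by the interaction term of limma, for 3 of the members, leaving out A549. For CES1 the change in H2009 exceeded that in H441 (difference of the log2 changes 1.14), and the change in H460 was below that in H2009 (-0.96). For CPS1 the change in H2009 exceeded that in H441 (1.01), and that in H460 was below that in H2009 (-0.77). For HNF4G the change in H460 was below that in H441 (-0.72) and below that in H2009 (-0.64). All 3 arrays per group entered each value, and none of these 6 calls changed in any alternative in which the gene was tested. H441, on the other side of 3 of the 6, had the most scattered arrays, and its part in these values was not tested.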

How the results depend on the processing

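Of 1147 alternative values of the 63 tested member values, 1132 kept their direction and side of the threshold, 9 lost a call, 6 gained one and none reversed. In A549 all 122 alternatives moved by less than 1 SD. Leaving out 1 of 3 arrays cannot move a value that far, and most other fits keep the value itself. That count was therefore largely fixed beforehand. Apart from SERPINA1 in H441, lost calls were CPS1 in H441 by the methods' t-test with adjustment (adjusted p = 0.0795) and the HNF4G level of H460 minus H2009 by that test (adjusted p = 0.0524). The methods' t-test, unadjusted then adjusted, called 1798 genes and then 1 in H441, 1331 then 193 for H2009, 1607 then 907 for H460 and 1141 then 38 for A549. Unadjusted it called 1 of 7 members in H441 and 1 lower list gene in H2009. Adjusted it called 0 members in H441, and, as lower and higher list genes, 1 and 0 in A549 and 0 and 0 in each of H2009 and H441, with 1 higher in H460. With only a line's own arrays, H441 had 401 genes called, 1 member and 0 higher list genes, and H2009 had 1 lower list gene. Among the 9208 genes above the median level, 3 members and 18 list genes were left, by construction. Then 1 member was called in H460, 3 in each of the level contrasts H460 minus H441 and H460 minus H2009, and 0 for the difference H460 minus H441, and list genes, lower and higher, were 3 and 1 in both H441 and H460, 3 and 2 in A549 and 0 and 2 in H2009. With array weights, chosen after seeing the data, 8 higher list genes were called in H441, 2 members for the difference H460 minus H441, and FOXA2 in H441 (-0.55, adjusted p = 0.013), while SERPINA1 there was not (-0.32, adjusted p = 0.209). Over all genes the weights called 2930 in H441, 1787 in H460, 1327 in H2009 and 1317 in A549, more than the main fit in each line. δ193 replicates 2 and 3 of H441 had weights of 0.227 and 0.165. With the replicate block, 2 members were called for the difference H460 minus H441, SERPINA1 being added (0.73, adjusted p = 0.00776), and list calls were lost for APOBEC1 in H441 (adjusted p = 0.0659) and for ITIH4 and CD14 in H460 (0.0703 and 0.0974). APOBEC1 in H441 was also lost with that line's arrays alone (0.27), with quantile normalization repeated (0.0549) and with array weights (0.102). The block called 2755 genes in H441, 1030 in H460, 904 in H2009 and 834 in A549, against 2636, 1003, 904 and 852 without it, and 5 of the 12 pairs correlated best within their own number. With 1 array left out, list genes called lower ranged over 6 to 10 in H441, 5 to 7 in A549, 5 to 6 in H460 and 1 to 2 in H2009, and those called higher over 2 to 7 in H441, 4 to 5 in A549, 2 to 3 in H460 and 1 to 3 in H2009. Members called ranged over 1 to 2 in H441 and over 1 to 2 for the difference H460 minus H441. The causes were not tested. No background level was measured, so signals near the low end have no known detection limit.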
